A study of Homo sapiens with 4 samples.

Results

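Expressed long non-coding RNAs (lncRNAs) were followed in PC3 cells, an established human prostate cancer line derived from a bone metastasis, after siRNA against COUP-TFII. They were taken as the array probe sets assigned to exactly 1 gene whose symbol starts with LINC or SNHG, ends in -AS1, -AS2, -IT1 or -DT, or is UCA1, MALAT1, NEAT1, H19, MEG3, PVT1, GAS5 or HOTAIR, and whose mean intensity over the 4 arrays was 100 or more. This gave 195 probe sets of 158 genes, out of 2488 probe sets of 1840 genes with such a symbol at any level and 54613 probe sets tested. RefSeq lists 194 of the 195 as lncRNA. The members were chosen by their mean intensity over all 4 arrays, so their level is a description and was not tested.

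The study compared PC3 cells transfected with 40 nM control siRNA and PC3 cells transfected with 40 nM COUP-TFII siRNA, with total RNA taken at 48 h and 2 arrays in each group. Both groups carry the same transfection and differ in the duplex, and all cells come from 1 established line. COUP-TFII is an orphan nuclear receptor that binds DNA at repeats of the sequence AGGTCA, and the comparison asks which transcripts change when it is depleted. The labels do not say that replicates came from separate transfections, so p-values cover the spread from array to array alone, which may be technical.

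LncRNAs are transcripts without a long open reading frame. Antisense transcripts (symbols ending in -AS) run against a protein-coding gene, divergent transcripts (-DT) start beside a coding promoter and run away from it, intronic transcripts (-IT) lie inside a coding gene, and LINC symbols mark intergenic RNAs. SNHG genes host small nucleolar RNAs (snoRNAs) in their introns, and MALAT1 is an abundant nuclear RNA found at splicing speckles.

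RefSeq promoter windows (GRCh38.p14, 250 bases before to 50 after a start) were found for 126 of the 158 genes, 156 windows in all. The promoters of 5 lncRNAs whose changes are described in the following paragraphs are shown, chosen after their values were seen, since the siRNA target is a DNA-binding factor. Capitals mark AGGTCA or its reverse complement TGACCT, the core site that COUP-TF proteins bind, searched on both strands. LINC00205 lies at chr21:45287802-45288101 on the plus strand, LINC00847 at chr5:180830707-180831006 on the plus strand, PPP1R26-AS1 at chr9:135472200-135472499 on the minus strand, SNHG17 at chr20:38435279-38435578 on the minus strand and LINC00294 at chr11:33075900-33076199 on the plus strand, each read 5′ to 3′ along its own strand.
LINC00205: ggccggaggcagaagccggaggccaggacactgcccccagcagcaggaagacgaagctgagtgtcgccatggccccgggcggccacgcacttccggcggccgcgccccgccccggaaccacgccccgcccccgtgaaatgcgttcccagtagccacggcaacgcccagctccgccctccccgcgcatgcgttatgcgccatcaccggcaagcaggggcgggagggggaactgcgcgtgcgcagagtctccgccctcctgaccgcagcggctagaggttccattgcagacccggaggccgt
LINC00847: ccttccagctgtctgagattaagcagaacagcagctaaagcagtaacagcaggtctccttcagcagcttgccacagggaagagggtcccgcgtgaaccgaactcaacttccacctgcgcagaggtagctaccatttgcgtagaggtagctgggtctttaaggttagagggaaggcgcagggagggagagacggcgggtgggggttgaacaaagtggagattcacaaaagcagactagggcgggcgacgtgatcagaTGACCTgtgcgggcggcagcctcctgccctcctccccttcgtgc
PPP1R26-AS1: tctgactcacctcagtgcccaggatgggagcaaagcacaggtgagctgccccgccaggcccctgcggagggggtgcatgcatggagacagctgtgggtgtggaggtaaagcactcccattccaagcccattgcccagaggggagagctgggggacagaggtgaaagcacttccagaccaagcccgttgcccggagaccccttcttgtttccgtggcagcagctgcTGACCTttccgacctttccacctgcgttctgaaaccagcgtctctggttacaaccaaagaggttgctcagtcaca
SNHG17: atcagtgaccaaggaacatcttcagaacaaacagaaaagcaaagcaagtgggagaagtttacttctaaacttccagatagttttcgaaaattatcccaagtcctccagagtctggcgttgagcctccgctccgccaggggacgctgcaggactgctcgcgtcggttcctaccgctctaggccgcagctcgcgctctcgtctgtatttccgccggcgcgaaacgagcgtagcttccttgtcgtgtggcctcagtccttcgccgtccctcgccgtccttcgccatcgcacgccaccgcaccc
LINC00294: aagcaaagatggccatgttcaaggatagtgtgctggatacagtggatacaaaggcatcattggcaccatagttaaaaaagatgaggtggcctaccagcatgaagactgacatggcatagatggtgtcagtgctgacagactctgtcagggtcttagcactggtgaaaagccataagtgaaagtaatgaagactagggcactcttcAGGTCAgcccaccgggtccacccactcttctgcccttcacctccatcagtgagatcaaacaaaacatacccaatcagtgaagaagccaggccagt

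LINC00847, PPP1R26-AS1 and LINC00294 hold 1 match each, and LINC00205 and SNHG17 hold 0. Over all members' promoters, 18 of 156 windows (11.5%) held a match, against 4857 of all 35116 windows (13.8%). Windows of genes with a member that rose held one in 7 of 54, windows of genes with a member that fell in 5 of 19 and windows of the remaining genes in 6 of 83. Several windows belong to 1 gene, and these shares were not tested. The direct repeat AGGTCANAGGTCA, searched on both strands and containing the shorter site, was in 0 of the 156 windows and in 8 of all 35116 (0.0228%). A match describes the letters and is not evidence of binding. The members' windows had a median GC content of 64.7%, against 58.7% for all windows.

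The arrays of a group were alike. Across probe sets, log2 intensities correlated at 0.987 and 0.988 within groups and at 0.975 to 0.979 between them, and array medians ran from 31.7 to 32.8. All 5 epithelial markers were bright, with means from 2395 to 9453, and their summed intensity was 31338 to 31713 in the control arrays and 31145 to 31546 in the COUP-TFII siRNA arrays. Of the 5, EPCAM and CDH1 fell by 0.24 and 0.30 (limma adjusted p = 0.0125 and 0.048), while KRT8 and KRT18 gave 0.16 and 0.13 and did not pass. The 6 fibroblast markers summed to 702.4 to 793.0 and to 1100 to 1115. COL1A1 alone made most of that sum and rose, while the other 5 had means of 68.0 or less. The 3 luminal markers measured summed to 176.2 to 180.3 and to 426.7 to 430.6, through TMPRSS2, while KLK3 and KLK2 had means under 20. The 3 leukocyte markers measured had means of 33.7 or less, and the 4 endothelial ones summed to 187.8 to 188.0 and to 219.7 to 281.7, nearly all of it PECAM1. The ACTB 3′ to 5′ ratio, which reads RNA integrity, was 1.52 and 1.83 in the control arrays and 1.42 and 1.46 in the COUP-TFII siRNA arrays, and that of GAPDH was 0.957 and 0.986 against 0.994 and 0.986. The part of these shifts in the results that follow was not tested.

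Expressed lncRNAs rose more often than they fell with COUP-TFII siRNA. Of the 195 probe sets, 62 (31.8%) rose and 14 (7.18%) fell at an adjusted p of 0.05 (limma, Benjamini-Hochberg over all probe sets), and 119 did not pass. In all probe sets tested, 6.51% were called higher and 5.67% lower. Among the 17364 probe sets with a mean of 100 or more, 18.3% were higher and 15.9% lower. Among the 15078 of these from protein-coding genes, the shares were 18.1% and 16.5%. The 17364 are called of like level below because they pass the same filter. Their mean intensities had a median of 402.5, against 205.1 for the lncRNAs, so shares within level bins are also given. By gene, 53 lncRNAs had a member that rose, 12 had one that fell, 0 had both and 93 had none that passed. An array of bulk RNA cannot tell less RNA per cell from fewer cells that carry it.

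The distribution of the lncRNAs was shifted to the positive side. The median log2 fold change was 0.23, with the middle of the distribution between -0.04 and 0.49 and the extremes at -1.0 and 2.26, and 139 of 195 (71.3%) were above 0. The median was 0.04 for all probe sets with a mean of 100 or more, of which 54.8% were above 0, and 0.01 for all probe sets. At a change of 1.5-fold or more, 40 lncRNA probe sets (20.5%) rose and 9 (4.62%) fell, against 6.66% and 7.37% of probe sets with a mean of 100 or more and 2.81% and 2.93% of all. At 2-fold or more 17 rose and 1 fell, a description for which no share of all probe sets was taken. Among the 17, APCDD1L-DT, TMEM161B-DT, PPP1R26-AS1, PSMG3-AS1, LINC03011 and 1 probe set of LINC00205 had control means under 100. For these the rule itself favoured a rise. Both COUP-TFII siRNA arrays lay above both control arrays for 115 members (59.0%) and below them for 32 (16.4%), where the shares were 41.7% and 33.3% of probe sets of like level and 26.3% and 24.1% of all.

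**Figure D1:**
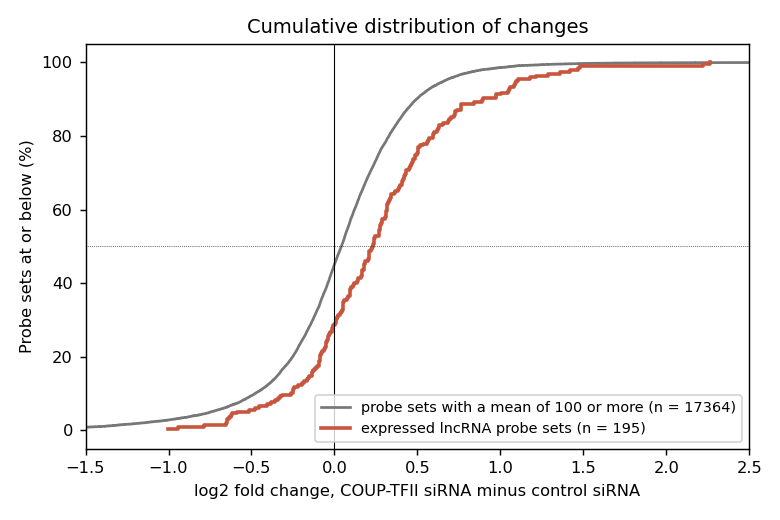
Cumulative distribution of the log2 fold change (x axis, COUP-TFII siRNA minus control siRNA) as the percent of probe sets at or below each value (y axis), for 195 expressed lncRNA probe sets (red) and all 17364 probe sets with a mean of 100 or more (grey). The lncRNA curve crosses 50% at 0.23 and the grey curve at 0.04, and the red line lies to the right over most of the range.

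The shares were also taken within bins of mean intensity. In the bin of mean 100 to 200, 27.7% of 94 lncRNA probe sets rose and 6.38% fell, against 12.3% and 10.2% of all 4345 probe sets in that bin. Between 200 and 400 the shares were 38.3% and 6.67% of 60 members, against 19.1% and 14.3%. Between 400 and 800 they were 25.9% and 7.41% of 27 members, against 22.4% and 17.5%, and the share that rose was there closest to that of all probe sets. At 800 and above, 42.9% and 14.3% of 14 members compare with 19.6% and 21.1%.

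The rule lets a lncRNA in through 1 group alone. Both group means were 100 or more for 171 members, of which 51 (29.8%) rose and 13 (7.60%) fell, with a median of 0.21. Another 19 reached the mean of 100 with a control mean under 100, and 11 of these rose, namely APCDD1L-DT, TMEM161B-DT, PPP1R26-AS1, PSMG3-AS1, LINC03011, ZNF232-AS1, NUP50-DT, SCAMP1-AS1 and 1 probe set each of LINC00205, LINC01806 and ANKRD13C-DT. The other 5 had a COUP-TFII siRNA mean under 100, and 1 of these fell, a probe set of SLC12A2-DT. For these 12 the rule itself favoured a difference between the groups. Their calls are a description wherever they are counted or named, also among the calls that held with an array left out. Just outside the threshold lay PPP3CB-AS1 at a mean of 99.7 and THUMPD3-AS1 at 99.997, and just inside LINC01920 at 100.1 and SOX21-AS1 at 100.6. The 2293 lncRNA probe sets under the threshold had a median mean of 15.0 and a median log2 fold change of 0.02, with 31 higher and 6 lower.

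The counts depend on the spread estimated from 2 arrays a group. With 1 array left out, 10 to 25 members rose and 1 to 4 fell, while the median log2 fold change stayed between 0.21 and 0.26. The share of members that rose was then 5.13% without control replicate 1, against 1.99% of probe sets of like level, 7.18% against 1.77% without control replicate 2, 11.8% against 4.92% without COUP-TFII siRNA replicate 1 and 12.8% against 5.81% without COUP-TFII siRNA replicate 2. Of the 76 calls, 10 passed in all 4 of these fits and 43 in none. The 10 were APCDD1L-DT, UCA1, TMEM161B-DT, LINC00648, LINC00847, SLC9A3-AS1, CKMT2-AS1, LINC00973 and 1 probe set each of MALAT1 and LINC00205.

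UCA1, a lncRNA first described in bladder carcinoma, was among the strongest rises. Its single probe set read 202.8 and 235.9 in the control arrays and 1141 and 1016 in the COUP-TFII siRNA arrays, so that the groups lay far apart. The log2 fold change was 2.22 ± 0.10 (SE, n = 2 arrays a group; limma adjusted p = 5e-05). Its neighbours in gene order, the olfactory receptor gene OR10H1 and the fatty acid hydroxylase gene CYP4F2, had means of 12.7 and 18.9 and did not pass.

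APCDD1L-DT, the divergent transcript of APCDD1L, read 93.9 and 72.1 in the control arrays and 482.0 and 431.0 in the COUP-TFII siRNA arrays. Its control mean is under 100, so it is a member only through the arrays in which it is high. The log2 fold change was 2.26 ± 0.13 (SE, n = 2 arrays a group; limma adjusted p = 0.000119 over all probe sets). Its other 2 probe sets, with means of 24.7 and 68.4, gave -0.03 and 0.29 and did not pass. APCDD1L itself read a mean of 64.9 in the control and 98.0 in the COUP-TFII siRNA arrays, a log2 fold change of 0.49 that did not pass (limma adjusted p = 0.134).

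**Figure D2:**
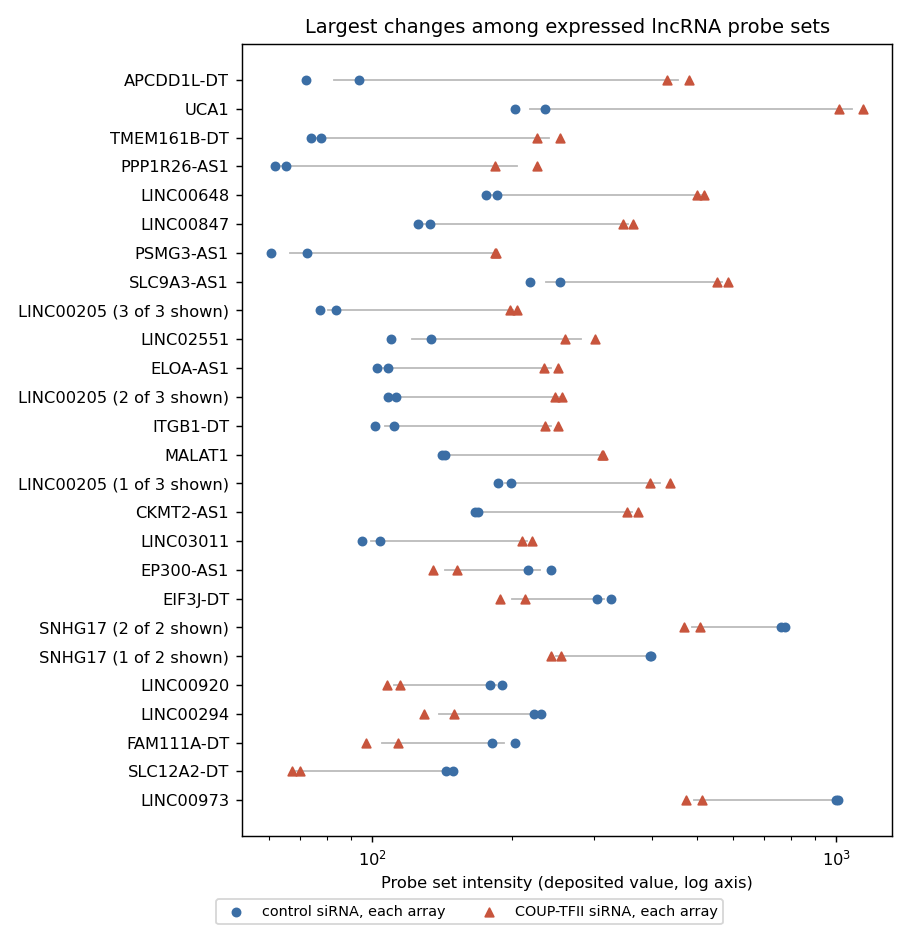
Deposited intensity (x axis, log scale) in each control siRNA array (blue circles) and each COUP-TFII siRNA array (red triangles) for the lncRNA probe sets that rose at least 2-fold or fell at least 1.5-fold, ordered by change, with a grey line joining the group means. The groups do not overlap in any probe set drawn, from APCDD1L-DT at the top to LINC00973 at the bottom. Where a gene has several probe sets that qualify, each is drawn and numbered.

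Intergenic RNAs formed the class with the second largest number of members. Of 57 LINC probe sets of 43 genes, 17 (29.8%) rose and 3 (5.26%) fell, against 18.3% and 15.9% of probe sets of like level. The median log2 fold change of the 57 was 0.31. LINC00648 read 175.7 and 185.4 in the control arrays and 519.1 and 501.7 in the COUP-TFII siRNA arrays, a rise of 1.42 ± 0.08 (SE, n = 2 arrays a group; limma adjusted p = 0.000114). LINC00847 went from 125.4 and 133.3 to 347.0 and 365.4, a rise of 1.36 ± 0.09 (limma adjusted p = 0.000221). The ZFP62 gene, which encodes a zinc finger protein and overlaps LINC00847 in RefSeq, rose by 0.51 (limma adjusted p = 0.00325), and the probe strand is not given in the sources used here.

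LINC00205 was covered by 5 members, and 4 of them rose, by 0.89 to 1.18. The probe set with the highest mean read 237.5 and 247.5 in the control arrays and 471.7 and 457.4 in the COUP-TFII siRNA arrays (0.89 ± 0.08, SE, n = 2 arrays a group; limma adjusted p = 0.000544). The fifth member read 111.1 and 116.4 against 190.5 and 130.3, a change of 0.42 that did not pass (limma adjusted p = 0.197). The adjoining coding genes POFUT2, an O-fucosyltransferase, and COL18A1, a collagen chain, gave 0.15 and -0.01 and did not pass.

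LINC02551 read 110.1 and 134.1 in the control arrays and 302.5 and 260.3 in the COUP-TFII siRNA arrays, a rise of 1.11 ± 0.13 (SE, n = 2 arrays a group; limma adjusted p = 0.00184). It passed in 1 of the 4 fits with an array left out. Its neighbour ADAMTS15, a secreted metalloprotease, rose from means of 393.2 to 1279, by 1.66 (limma adjusted p = 4.26e-05). SNX19, on the other side, gave 0.26 and did not pass. LINC03011 rose by 1.01, LINC01000 by 0.72 in 1 of its members and LINC02035 by 0.68, and LINC00667 by 0.63 in 1 of its members. The LINC01000 member that rose is marked as open to cross-hybridisation and ranged from 0.54 to 0.91 with 1 array left out. The other LINC01000 member gave -0.19 and did not pass. LINC02035 gave 0.40 without control replicate 2 and 0.96 without control replicate 1. Both members of LINC01806 rose, by 0.97 and 0.49, and its neighbour TANK, an adaptor of innate immune signalling, rose by 0.55. The members of LINC02035, LINC00667 and LINC01806 that rose passed in 0 of the 4 fits with an array left out.

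LINC00973 had the largest fall. It read 1008 and 999.5 in the control arrays and 474.8 and 512.6 in the COUP-TFII siRNA arrays, and the groups lay far apart. The log2 fold change was -1.0 ± 0.07 (SE, n = 2 arrays a group; limma adjusted p = 0.00018), and it passed with any 1 array left out. Both coding neighbours of LINC00973 fell as well. DCBLD2, a transmembrane receptor, went from means of 4521 to 3122 (-0.53; limma adjusted p = 0.000783) and COL8A1, a collagen chain, from 625.5 to 307.9 (-0.98; limma adjusted p = 0.000705). LINC00294 read 223.4 and 231.1 in the control arrays and 129.5 and 149.8 in the COUP-TFII siRNA arrays, and LINC00920 read 190.4 and 179.1 against 115.1 and 107.9. Each fell by 0.65, without overlap of the groups, and neither passed with any 1 array left out. The neighbouring genes measured did not pass.

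Over the lead probe sets of the intergenic and other lncRNAs without a named partner, 45 neighbouring or overlapping coding genes had a mean of 100 or more. Of these, 16 were higher and 8 lower, where 18.3% and 15.9% of probe sets of like level were. Beside a lncRNA that rose, 4 of 15 neighbours were higher and 1 lower, beside one that fell 1 of 5 was higher and 2 lower, and beside one that did not pass 11 of 25 were higher and 5 lower. ZFP62 and SETD1B, which overlap LINC00847 and LINC01089, are among the genes counted as higher. FRMD8 is counted beside a lncRNA that did not pass, because the lead probe set of MALAT1 gave 0.09, while 4 of the 6 MALAT1 members rose. The neighbour counts therefore depend on the lead probe set, and they were not tested.

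Antisense transcripts were the largest class, with 86 probe sets of 77 genes. In this class 27 (31.4%) rose and 6 (6.98%) fell, against 18.3% and 15.9% of probe sets of like level. The median log2 fold change of the class was 0.18. PPP1R26-AS1, a member only through the COUP-TFII siRNA arrays, read 65.4 and 61.7 in the control arrays and 226.7 and 184.0 in the COUP-TFII siRNA arrays, a change of 1.47 ± 0.14 (SE, n = 2 arrays a group; limma adjusted p = 0.000848). PSMG3-AS1, a member through the same arrays alone, read 60.7 and 72.3 against 184.4 and 185.0, and SLC9A3-AS1 read 218.8 and 254.3 against 553.8 and 583.4. They rose by 1.29 and 1.21 and their groups were far apart. Their partners, which encode a proteasome assembly chaperone (PSMG3) and a sodium-hydrogen exchanger (SLC9A3), did not pass, and SLC9A3 had a mean of 2.5.

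ELOA-AS1 read 108.2 and 102.6 in the control arrays and 235.2 and 251.8 in the COUP-TFII siRNA arrays, a rise of 1.10. CKMT2-AS1 read 166.3 and 168.8 against 373.7 and 353.6, a rise of 1.05 that passed in all 13 other settings fitted. Smaller rises passed in 2 members of MAPKAPK5-AS1 (0.70 and 0.34) and in 1 of PAX8-AS1 (0.59). Their remaining members gave 0.33 and -0.09 and did not pass. Among lncRNAs with 1 member, rises passed in RAB11B-AS1 (0.97), CARD8-AS1 (0.74), ZNF232-AS1 (0.69), TRAM2-AS1 (0.63), NRSN2-AS1 (0.62), SCAMP1-AS1 (0.61), C10orf95-AS1 (0.60) and DHRS4-AS1 (0.59). Of these, CARD8-AS1, ZNF232-AS1, TRAM2-AS1, NRSN2-AS1, SCAMP1-AS1, C10orf95-AS1 and DHRS4-AS1 passed in 0 of the 4 fits with an array left out. FGD5-AS1 read 1383 and 1324 against 1879 and 1837. It rose by 0.45 ± 0.05 (SE, n = 2 arrays a group; limma adjusted p = 0.00193).

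Falls among antisense transcripts were smaller. EP300-AS1, which lies against the gene of a histone acetyltransferase, read 243.1 and 217.2 in the control arrays and 152.3 and 135.2 in the COUP-TFII siRNA arrays and fell by 0.62 (limma adjusted p = 0.0121). LOXL1-AS1, named for a lysyl oxidase of the matrix, read 1854 and 1769 against 1262 and 1326 and fell by 0.48 (limma adjusted p = 0.00193). OIP5-AS1, a cytoplasmic lncRNA known to bind a microRNA, had 3 members. They gave -0.51, -0.38 and -0.32, of which the first 2 passed. RUSC1-AS1 and SPINT1-AS1 fell by 0.45 and 0.36, and the probe set of SPINT1-AS1 is marked as open to cross-hybridisation.

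Divergent transcripts numbered 38 probe sets of 31 genes, of which 13 (34.2%) rose and 3 (7.89%) fell, with a median of 0.27. The shares of probe sets of like level were 18.3% and 15.9%. TMEM161B-DT read 74.0 and 77.8 in the control arrays and 227.0 and 253.8 in the COUP-TFII siRNA arrays, a rise of 1.48 ± 0.12 (SE, n = 2 arrays a group; limma adjusted p = 0.000384). This probe set is a member only through the COUP-TFII siRNA arrays and is marked as open to cross-hybridisation. Another of the gene, left out at a mean of 90.5, had the higher control mean of 102.5 and gave -0.33, which did not pass (limma adjusted p = 0.253). ITGB1-DT read 101.4 and 111.4 against 250.9 and 235.6, a rise of 1.08 (limma adjusted p = 0.00101). Further rises passed in PAXIP1-DT (0.89), MAP3K2-DT (0.76), C2orf74-DT (0.72) and NUP50-DT (0.65). Both members of ANKRD13C-DT rose, by 0.76 and 0.48, and the one at 0.48 is marked as open to cross-hybridisation. C2orf74-DT, NUP50-DT and ANKRD13C-DT passed in 0 of the 4 fits with an array left out.

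The falls among divergent transcripts were those of SLC12A2-DT, FAM111A-DT and EIF3J-DT, none of which passed with any 1 array left out. EIF3J-DT read 327.8 and 304.6 in the control arrays and 188.3 and 213.1 in the COUP-TFII siRNA arrays and fell by 0.62 (limma adjusted p = 0.00726). FAM111A-DT fell by 0.78 in 1 member, from 181.5 and 203.6 to 113.6 and 97.0, while its other member gave -0.13 and did not pass. The probe sets of SLC12A2-DT moved in different directions. The one that fell read 144.4 and 149.5 against 70.0 and 67.4 (-0.94; limma adjusted p = 0.00374) and is a member only through the control arrays. The other 2 members gave 0.43 and 0.42 (limma adjusted p = 0.0756 and 0.0631). The only intronic member, GABPB1-IT1, gave 0.05 and did not pass.

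In 25 genes several members could be compared. All members rose in 2 of them, ANKRD13C-DT and LINC01806, and both members fell in 1, SNHG17. Part of the members passed in 13 genes and none in 9. Members that passed in opposite directions were found in 0 genes.

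**Figure D3:**
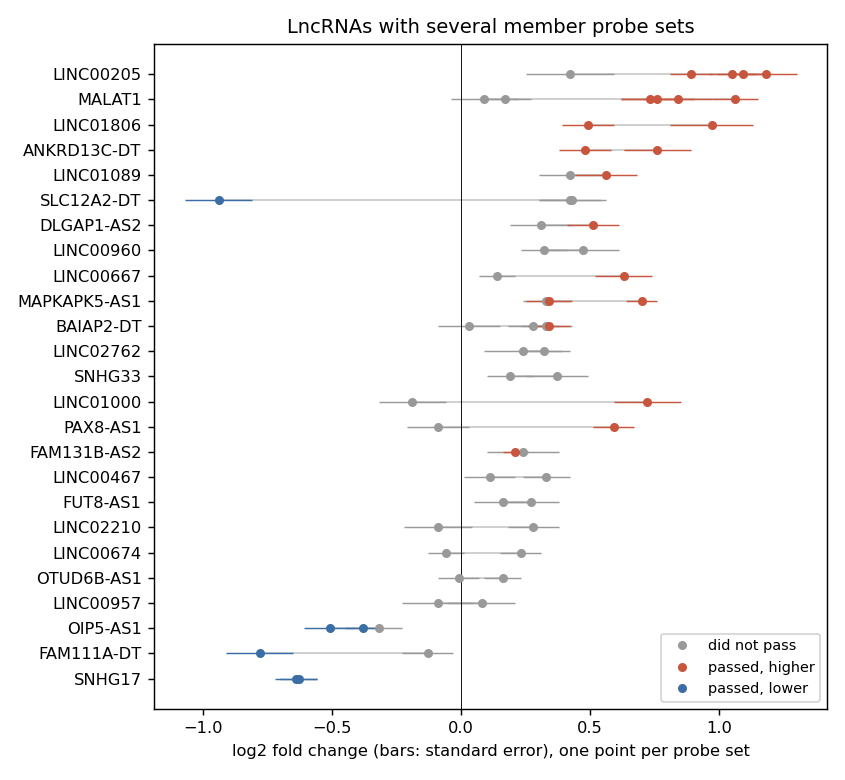
Log2 fold change (x axis) with its standard error (bars) of each member probe set of the 25 lncRNAs with several members (y axis), coloured red for a rise that passed, blue for a fall that passed and grey otherwise. Members of 1 gene mostly lie on the same side of 0, and SLC12A2-DT has 1 at -0.94 and 2 near 0.43.

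Antisense and divergent lncRNAs and the intronic GABPB1-IT1 were then set beside the coding genes for which they are named. Each gene stood by its lead probe set, the brightest not marked as open to cross-hybridisation, or the brightest where all were so marked. For a lncRNA it was taken among the members. Of 109 such pairs, 100 had a measured partner and 77 a partner with a mean of 100 or more. RefSeq places the start of the lncRNA on the opposite strand in 60 of 61 antisense and in 21 of 21 divergent pairs with a window for both, and the windows overlap in 18 and 19 of them. Both genes passed in the same direction in 6 of the 77 pairs and in opposite directions in 0. The lncRNA alone passed in 21, the partner alone in 19 and neither in 31. Partners were higher in 10 of the 77 pairs and lower in 15, where 18.3% and 15.9% of probe sets of like level were. The counts of joint calls were not tested against those that the separate counts of lncRNAs and partners would give. The log2 fold changes of the 77 pairs correlated at 0.18 (both Pearson and Spearman, across genes measured on the same arrays, as a description). Among the 32 of these pairs with overlapping start windows, both passed in 3, the lncRNA alone in 10 and the partner alone in 7.

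The 4 pairs in which both rose were MAPKAPK5-AS1 with the kinase gene MAPKAPK5, MAP3K2-DT with the kinase gene MAP3K2, PAXIP1-DT with PAXIP1 and TMEM161B-DT with TMEM161B. TMEM161B-DT is a member only through the COUP-TFII siRNA arrays, so its call is a description. MAPKAPK5-AS1 read 607.0 and 642.9 in the control arrays and 1018 and 1033 in the COUP-TFII siRNA arrays, and MAPKAPK5 read 321.2 and 285.5 against 460.3 and 442.1, changes of 0.70 and 0.55 (limma adjusted p = 0.000574 and 0.00651). The rises of the partners MAP3K2, PAXIP1 and TMEM161B were 0.50, 0.34 and 0.31. The 2 pairs in which both fell were EIF3J-DT with EIF3J, a subunit of a translation initiation factor (-0.50), and OIP5-AS1 with OIP5, a centromere protein that fell from 576.8 and 530.1 to 227.4 and 238.3. The log2 fold change of OIP5 was -1.19 (limma adjusted p = 0.000211), against -0.38 for the lead probe set of OIP5-AS1.

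More often 1 gene of a pair passed alone. ITGB1, the integrin beta-1 subunit, read 10111 and 10033 in the control arrays and 10165 and 10081 in the COUP-TFII siRNA arrays, with overlap, while ITGB1-DT rose. ELOA, an elongation factor subunit, gave 0.06, PSMG3 gave -0.07 and PPP1R26 gave 0.20, and these did not pass either. In the reverse case the mitotic kinase gene NEK2 fell by 1.18 with NEK2-DT at 0.02, and ATXN1 fell by 1.08 with ATXN1-AS1 at 0.09. The SLC12A2 gene, a sodium-potassium-chloride cotransporter, fell by 1.12 while the lead member of SLC12A2-DT gave 0.43. Another member of SLC12A2-DT fell by 0.94, in the direction of SLC12A2. Likewise FAM111A fell by 0.34, with the lead member of FAM111A-DT at -0.13 and its other member at -0.78. The counts of pairs therefore depend on the probe set that stands for a lncRNA. ILRUN rose by 0.95 with ILRUN-AS1 at -0.13. NR2F1-AS1, which lies beside the paralogous receptor gene NR2F1, read 579.6 and 591.5 against 557.3 and 529.6 and did not pass (-0.10), while NR2F1 fell by 0.46 (limma adjusted p = 0.00373). The difference between the lncRNA and its partner was not tested in these pairs.

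**Figure D4:**
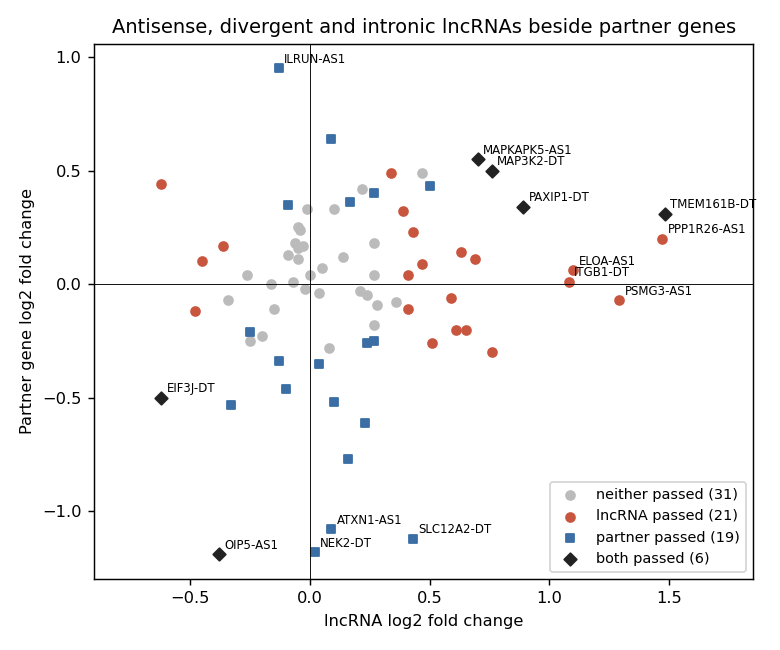
Log2 fold change of the lncRNA (x axis) against that of the partner gene (y axis) for the 77 antisense, divergent and intronic pairs whose partner had a mean of 100 or more. Black diamonds mark the 6 pairs in which both passed, red circles the 21 in which the lncRNA passed alone, blue squares the 19 in which the partner passed alone and grey circles the 31 in which neither did, and the black diamonds lie in the upper right and lower left.

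MALAT1 was covered by 12 probe sets of a single gene, of which 6 are members. Of the 12, 5 rose and 0 fell at the adjusted threshold (limma), and the remaining 7 did not pass. The clearest rise was read by a member at 143.3 and 141.5 in the control arrays and 313.6 and 314.4 in the COUP-TFII siRNA arrays, 1.06 ± 0.09 (SE, n = 2 arrays a group; limma adjusted p = 0.000511). Another member read 947.3 and 1103 against 1889 and 1536 and rose by 0.73 (limma adjusted p = 0.00573), and the other 2 members that rose gave 0.84 and 0.76. Those 2 are marked as open to cross-hybridisation, as is the brightest member. With 1 array left out they ranged from 0.64 to 1.04 and from 0.55 to 0.97.

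The 2 brightest MALAT1 probe sets did not show this rise. One read 2616 and 2320 in the control arrays and 3088 and 2509 in the COUP-TFII siRNA arrays (0.17; limma adjusted p = 0.379). The other read 1746 and 1554 against 2024 and 1528 (0.09; limma adjusted p = 0.74), and without COUP-TFII siRNA replicate 1 its change became -0.11. In both, the groups overlapped. COUP-TFII siRNA replicate 1 read above replicate 2 in 5 of the 6 members, so that the size of the MALAT1 rise differs by array as well as by probe set. FRMD8, the nearest coding gene before MALAT1, rose from means of 556.1 to 1218, by 1.11 (limma adjusted p = 8.8e-05).

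**Figure D5:**
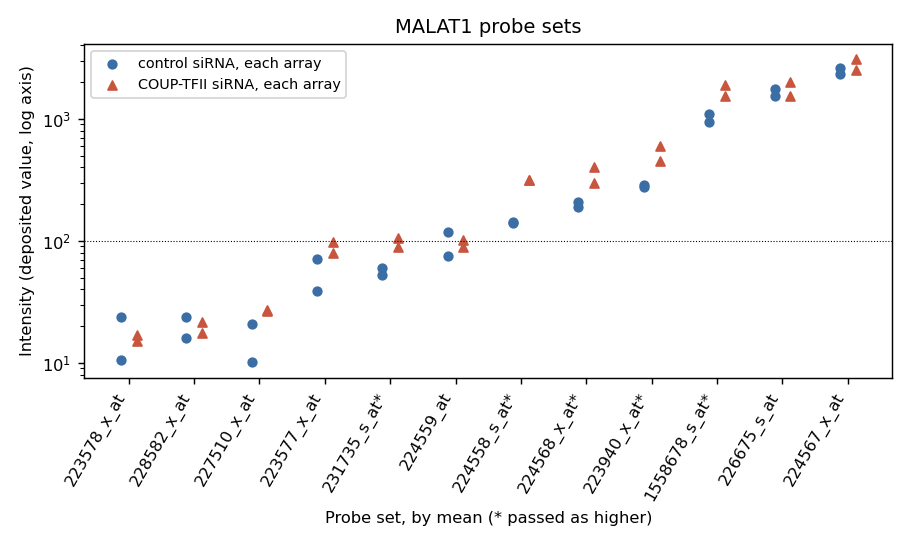
Deposited intensity (y axis, log scale) of the 12 MALAT1 probe sets (x axis, ordered by mean) in each control siRNA array (blue circles) and each COUP-TFII siRNA array (red triangles). The dotted line is the mean of 100 that members reach, an asterisk marks the 5 probe sets that rose, and the 2 brightest at the right have overlapping groups.

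The snoRNA host genes had 6 members of 4 genes, and of these 0 rose (limma) and 2 fell, both of SNHG17. Among probe sets of like level 18.3% rose and 15.9% fell, and 6 members are too few to compare with those shares. SNHG17 read 399.3 and 397.3 in the control arrays and 242.7 and 255.4 in the COUP-TFII siRNA arrays by one probe set, and 759.2 and 773.5 against 468.8 and 507.9 by the other. The falls were 0.64 and 0.63 on the log2 scale (SE 0.08 and 0.07, n = 2 arrays a group; limma adjusted p = 0.00235 and 0.00139). Its neighbour RALGAPB, a GTPase-activating protein subunit, rose by 0.35. SNHG32 read 1255 and 1269 against 1273 and 1339 (0.05; limma adjusted p = 0.688), and SNHG19 read 424.0 and 427.6 against 386.6 and 418.9 (-0.08; limma adjusted p = 0.627). The 2 members of SNHG33 gave 0.37 and 0.19 and did not pass. A further 8 SNHG probe sets of 7 genes had means of 6.10 to 56.3.

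Several well-known lncRNAs fell outside the rule. NEAT1 and H19 have 0 probe sets assigned to a single gene. MEG3, PVT1, GAS5 and HOTAIR were measured with highest means of 50.6, 20.2, 39.2 and 47.4. Another 136 probe sets name such a lncRNA together with other genes, 53 of them with a mean of 100 or more, and were left out.

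Protein partners of these RNA classes moved in both directions. Of 14 snoRNP proteins measured, which assemble snoRNAs, 1 rose (ZNHIT6, 0.38) and 3 fell, namely the core protein NOP58 (-0.38), the assembly factor NAF1 (-0.50) and the helicase RUVBL1 (-0.49), with a median of -0.10. Of 9 factors of nonsense-mediated decay, the pathway that degrades many snoRNA host transcripts, UPF1, UPF2 and SMG5 rose by 0.46, 0.48 and 0.37 and RBM8A and PNRC2 fell by 0.26 and 0.73. Of 15 subunits and cofactors of the RNA exosome, which degrades divergent and antisense RNA in the nucleus, 2 rose and 4 fell, with a median of -0.20. The falls were those of EXOSC6 (-0.66), EXOSC8 (-0.89), EXOSC9 (-0.90) and the helicase MTREX (-0.39), and the rises those of ZCCHC7 (0.46) and RBM7 (0.32). EXOSC8 read 491.4 and 527.5 in the control arrays and 267.9 and 267.6 in the COUP-TFII siRNA arrays.

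Of 13 paraspeckle proteins, which gather on NEAT1, 0 passed in either direction (limma; 0 higher and 2 lower at an unadjusted p of 0.05), with a median of -0.03. Of 16 genes with a terminal oligopyrimidine tract, the feature shared by many snoRNA hosts (13 ribosomal protein genes, the elongation factor genes EEF1A1 and EEF2, and TPT1), 0 passed (limma; 0 higher and 0 lower at an unadjusted p of 0.05), with a median of -0.01. Of the 16, RPL7, RPLP2, EEF1A1 and RPL27A stood by dim probe sets, with means of 35.9, 120.8, 175.4 and 254.4. Their standard errors were 0.12 to 0.25, against 0.04 or 0.05 for the rest, so the lack of a call says less about them. Among 13 housekeeping genes 2 rose and 2 fell, with a median of -0.04, and PPIA stood by a probe set with a mean of 8.0. Most genes of these lists had a mean of 100 or more, the level at which 18.3% of probe sets were higher and 15.9% lower and the median was 0.04. The counts of these lists were not tested against those shares.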

How the data were processed

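Total RNA of 4 samples was labelled with biotin by a 3′ IVT kit before hybridisation to Affymetrix arrays of 1 colour, per the labels. The values deposited by the authors are linear intensities, 1 for each probe set and array. How they were summarised and normalized is not given in the sources used here. No detection calls come with them. The number of arrays limits the precision. The file holds 54675 probe sets. The 62 control probe sets were left out. The platform table, of 2016, names 1 gene for 41091 of the others, several for 1801 and none for 11721. Symbols were updated through RefSeq (GRCh38.p14), which matched 41037, and the exception among the members was LINC00973.

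Values were used as log2(value + 16), so fold changes of dim probe sets are understated. Probe sets differ in how strongly they bind, so a brighter probe set or a higher sum does not show more RNA. Groups were compared with limma 3.58.1 under R 4.3.3, by lmFit and a trended eBayes, over all 54613 probe sets, with Benjamini-Hochberg adjustment at 0.05 (2 residual degrees of freedom, 7.11 after moderation). An exact permutation test of 2 arrays against 2 cannot give a two-sided p below 0.333. Same-numbered deviations correlated at 0.01 over all probe sets and at 0.042 over those with a mean of 100 or more. These values gave no sign that replicate numbers pair the samples but cannot exclude it. No block was used in the main fit.

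Named genes were every lncRNA with a passing member of an absolute log2 fold change of 0.58 or more, the SNHG genes, the 8 lncRNAs named in the rule, the 3 brightest members and their partners. Further lncRNAs and neighbours were named after their values were seen. The members and lists were chosen with earlier results of these data known. A partner is the gene whose symbol the lncRNA carries. Neighbours are the nearest coding genes in RefSeq order, and counts of them include coding genes that overlap the lncRNA. The lead probe set of a gene is its brightest, with those marked as open to cross-hybridisation used only where no other exists. Alternatives covered scaling, pseudocount, level filter, variance model, probe set choice, thresholds, the block and each array left out. The target's own transcript is not reported here, so the labels were not checked against it. Figures were drawn with matplotlib 3.10.9.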

Additional observations from a re-analysis of the deposited data

How the results depend on the processing

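The median log2 fold change of the lncRNA members stayed between 0.19 and 0.24 under other pseudocounts, scalings, variance models and probe set choices, and was 0.13 when members needed a mean of 50 alone, which adds dimmer probe sets. Counts of calls depended most on the variance model and the number of arrays. With 1 prior variance for all probe sets, 12 members rose and 0 fell (limma; 17 lower at an unadjusted p of 0.05), and over all probe sets 172 were higher and 355 lower. With 1 array left out, 10 to 25 members rose and 1 to 4 fell, and over all probe sets 314 to 1017 were higher and 403 to 1522 lower. At an adjusted p of 0.01, 32 members rose and 9 fell (1638 and 1762 over all), and with a change of at least 1.5-fold 40 and 9 (1536 and 1602 over all). Members with a mean of 200 or more held 36 rises and 8 falls. Testing only probe sets with a mean of 50 or more gave 93 and 19 (5451 and 4364 over all), 1 probe set per gene 56 and 10 (2519 and 2039 over all), and averaging the probe sets of a gene 42 and 11 (1631 and 1532 over all). Centring on the array median gave 79 and 15, and on housekeeping genes 74 and 16. With the replicate number as a block, 69 members rose and 16 fell (4241 and 3625 over all), although it is not known whether the numbers pair the samples. For the 55 lncRNA probe sets named, 553 of 715 comparisons kept direction and call, 159 lost the call, 2 gained it and 1 reversed, a MALAT1 probe set at 0.09 that ranged from -0.11 to 0.29 with 1 array left out and was negative without COUP-TFII siRNA replicate 1. The cause was not tested.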
